A study of Mus musculus with 9 samples.

Results

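The parental YAMC line was represented by 3 of the 9 RNA-seq libraries of the series, those titled as parental, and the levels of all 28059 genes in them are described here without any comparison with the other 6 libraries, which come from Cdk8 knockout clones. YAMC is a mouse line that the labels call intestinal and assign to the small intestine. The parental genotype is given as wildtype, and the cells were kept at 32 °C and harvested while in logarithmic growth. The labels name no strain, age or medium and give no word on whether each replicate came from its own culture, so the spread between them may be technical. Every value is an RPKM, that is, reads scaled to the length of the gene in kilobases and to the library total in megareads, and a mean is taken over these 3 libraries (n = 3). Main genes are given with ± SD or with their value in each library, and further genes by the mean alone.

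YAMC cells are known as a conditionally immortalized line derived from the colon of a mouse that carries a temperature-sensitive viral T antigen under an interferon-inducible class I promoter; the lower temperature keeps that protein active and the cells dividing. That origin in the colon differs from the small intestine of the labels, and which is right was not tested. The intestinal lists used below are by cell type or regulator and were not split by part of the gut. The intestinal epithelium is a simple epithelium held together by E-cadherin, built on keratins, and specified by the homeobox factors Cdx1 and Cdx2 and by hepatocyte nuclear factors. The mesothelium, the flat cell layer on the outer surface of the gut and other organs, also makes simple keratins but adds Wt1, mesothelin and the uroplakin Upk3b, and makes vimentin as mesenchymal cells do.

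The labelled tissue was checked against its defining genes. Cdx1, Cdx2 and Hnf4a were listed at 0 in all 3 libraries, as were the fatty acid binding protein genes Fabp1 and Fabp2. The epithelial genes Epcam (0.0212 ± 0.0186 RPKM, about 4 reads in all) and Cdh17 (0.0172 ± 0.0134 RPKM, about 7 reads) were close to that level. Of 109 genes on 7 lists of intestinal markers, 16 reached 1 RPKM in every library, as 43.1% of all genes and 50.2% of protein-coding genes did, and 81 stayed below 0.1 RPKM in every library, as 43.6% of all genes and 38.4% of protein-coding genes did. The cells are therefore called parental YAMC cells throughout, by their name and not by a tissue.

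The deposited values held steps of whole reads in the small RNA genes, from which the reads behind each library were recovered as 44.2, 28.2 and 33.1 megareads for replicates 1, 2 and 3, or 105.5 megareads together. A single read in a gene model of 2 kilobases was worth 0.0113, 0.0177 and 0.0151 RPKM. For a gene of that length listed at 0 everywhere, a limit of 3 reads over the 3 libraries allows a level of up to 0.0142 RPKM, for counting error only. The number of genes above 0 was 18907, 18311 and 18523, and log2 values correlated at 0.9975 to 0.9980 between libraries across 12282 genes, which are not independent replicates. Among the 9025 genes with a mean of at least 5 RPKM, the median coefficient of variation was 2.38%.

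A gene was counted as expressed at 1 RPKM or more in each of the 3 libraries, and as near-silent below 0.1 RPKM in each. By these rules 12089 genes, or 43.1%, were expressed, and 12221, or 43.6%, lay below 0.1 RPKM, of which 7833 were listed at 0 in all 3 libraries. The median over all genes was 0.278 RPKM. A level of at least 10 RPKM in every library was found for 6573 genes, of at least 100 RPKM for 567, and of at least 1000 RPKM for 13. Among the 20910 protein-coding genes, 50.2% were expressed, 38.4% were below 0.1 RPKM and the median was 1.16 RPKM. The 10 highest genes of a library held 4.17% ± 0.0315 of its summed RPKM, the highest 100 held 16.8% ± 0.0675 and the highest 1000 held 48.9% ± 0.117.

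The highest gene was B2m, the invariant chain of class I molecules, at 1987, 2000 and 1983 RPKM. It was followed among named genes by Lgals1, a secreted galectin, at 1538 ± 27.8 RPKM, the calcium-binding S100a6 at 1422 ± 14.5 RPKM, Actb at 1413 ± 24.2 RPKM and the actin-binding Tmsb4x at 1363 ± 14.6 RPKM. S100a6 and Actb overlapped in range. The other named genes of the first 20 were the ribosomal protein gene Rpl8, Vim, the actin-severing Cfl1, the chaperone Hsp90ab1, the ribosome-bound scaffold Rack1 and the iron store Fth1. Of those 20 genes, 9 had identifiers that matched no symbol and are not described further.

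Levels of genes with near-identical copies elsewhere in the genome are uncertain. Among 25 genes that every cell uses, all were expressed, with a median of 85.2 RPKM, but the glycolytic gene Gapdh was at 4.37, 4.4 and 4.0 RPKM, the actin gene Actg1 at 3.98, 4.71 and 3.96 RPKM and the cyclophilin gene Ppia at 2.98, 2.98 and 3.08 RPKM, against 1413 RPKM for Actb. Pseudogenes named after the gene numbered 3 for Gapdh and 4 for Ppia, but 0 for Actg1 and 1 for Actb. High levels were also listed with such pseudogenes. Aldoa and Ldha, with 3 each, were at 222 and 114 RPKM. How the authors assigned reads that match more than 1 place is not given in the sources used here, and its part in these values was not tested. A low level or a 0 of a gene with such copies is therefore read here as a value of the table and not as silence.

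The 6 stated markers, Vim, Krt18, Upk1b, Upk3b, Msln and Wt1, were all expressed, and 5 of them exceeded 100 RPKM. Because they were named with these data in view, their levels are a description. Vim, the intermediate filament of mesenchymal cells, stood at 1179, 1215 and 1204 RPKM and at rank 10 of 28059. Krt18, a keratin of simple epithelia, stood at 386, 399 and 389 RPKM and at rank 58. All 3 libraries thus placed a mesenchymal and an epithelial filament gene among the highest genes of the table.

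The tetraspanin uroplakin Upk1b was measured at 365, 361 and 364 RPKM (rank 66). Its neighbour in rank was Upk3b, which pairs with it in the urothelial plaque and is also made by mesothelium, at 352, 356 and 356 RPKM (rank 67); the ranges of these genes did not overlap. Msln, the surface protein mesothelin, was at 114, 108 and 112 RPKM, and Wt1, a zinc finger transcription factor, was at 79.3, 82.5 and 78.5 RPKM (ranks 495 and 806). No ranges overlapped among the 6 stated markers, and their order was the same in each library.

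The sequences before the annotated starts of Upk3b, Krt18 and Vim are shown because these markers stand for the uroplakin, keratin and vimentin arms of the pattern and differ in CpG content. Each is the run of 250 bases before the start in RefSeq, build GRCm38.p6, 5′ to 3′ on the strand of the gene, with CpG steps in capitals; they lie at chr5:136038246-136038495 (+), chr15:102027966-102028215 (+) and chr2:13574061-13574310 (+).
Upk3b: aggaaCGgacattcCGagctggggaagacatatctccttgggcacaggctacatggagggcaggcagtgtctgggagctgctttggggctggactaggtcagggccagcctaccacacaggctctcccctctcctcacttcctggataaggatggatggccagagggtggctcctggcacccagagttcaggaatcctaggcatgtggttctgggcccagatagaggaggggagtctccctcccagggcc
Krt18: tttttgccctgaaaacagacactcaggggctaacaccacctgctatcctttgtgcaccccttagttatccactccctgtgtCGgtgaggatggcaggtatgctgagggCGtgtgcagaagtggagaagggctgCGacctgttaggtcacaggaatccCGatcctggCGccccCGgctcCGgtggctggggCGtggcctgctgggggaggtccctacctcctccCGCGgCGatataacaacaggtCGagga
Vim: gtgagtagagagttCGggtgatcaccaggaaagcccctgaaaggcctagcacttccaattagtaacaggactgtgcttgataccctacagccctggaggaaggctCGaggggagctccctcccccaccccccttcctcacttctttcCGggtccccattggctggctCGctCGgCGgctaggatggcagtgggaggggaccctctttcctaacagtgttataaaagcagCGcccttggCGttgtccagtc

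Upk3b held 2 CpG steps, Krt18 held 12 and Vim held 8. The letters TATAAA lay in the window from 40 to 16 bases before the start in Vim and in neither of the others. This window held them in 2.22% of 27025 promoters.

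Of 22 mesothelial markers, 19 were expressed, with a list median of 20.4 RPKM, but 5 of the 22 are stated markers. Without those 5, 14 of 17 were expressed, with a median of 14.1 RPKM, against 50.2% and 1.16 RPKM for protein-coding genes. The other members were also chosen with earlier results of these data known, so both counts are a description. Beyond the stated markers, the simple keratin genes Krt8 (129, 130 and 131 RPKM) and Krt19 (96.9, 102 and 104 RPKM) led, followed by Gpm6a, a membrane glycoprotein, at 80.8 ± 1.34 RPKM. Gpm6a and Wt1 overlapped in range and were not ordered. At intermediate levels were Lrrn4 (55.6 ± 0.279 RPKM), the surface mucoprotein gene Pdpn (44.3 ± 1.32 RPKM), Krt7 (22.1 ± 1.00 RPKM), the polarity gene Crb2 (18.7 ± 0.266 RPKM) and the zinc finger gene Bnc1 (16.2 ± 0.197 RPKM). Slpi and Cldn15, at 14.1 and 14.0 RPKM, overlapped.

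Not every gene of that list was high. Tbx18 was at 8.24 RPKM, Rspo1 at 6.59 RPKM and the mucin Muc16 at 2.09 RPKM, while Prg4, the lubricant proteoglycan, fell on both sides of the threshold at 0.978, 1.13 and 1.18 RPKM. The retinoic acid synthase gene Aldh1a2 was at 0.03, 0.0156 and 0.0134 RPKM, about 5 reads in all, and Calb2, which encodes calretinin, was listed at 0 in each library. Those 2 genes are defining mesothelial markers in common use and were below 0.1 RPKM in every library.

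**Figure D1:**
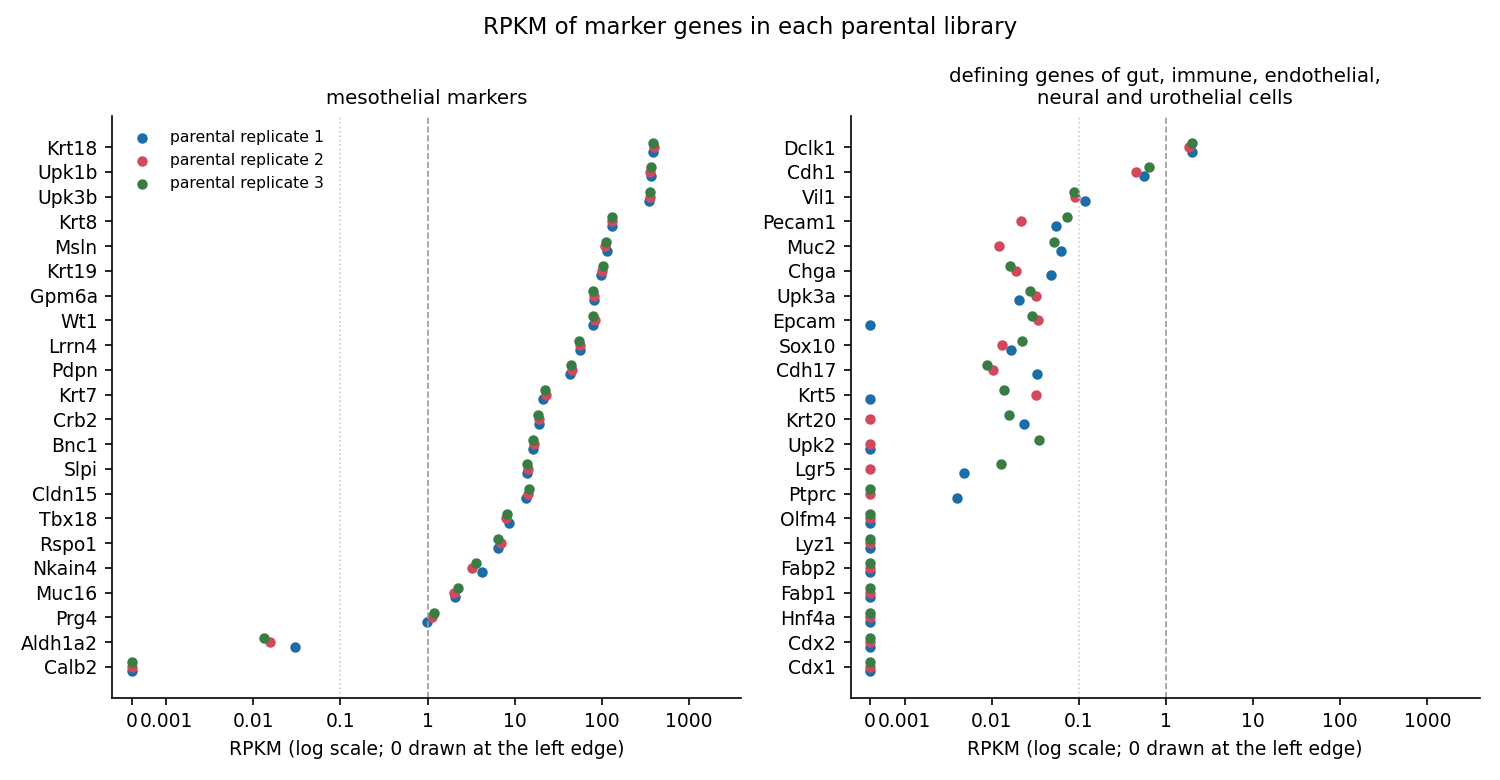
RPKM of each parental library (points, 1 colour per replicate) on a log axis, with values of 0 drawn at the left edge, for 22 mesothelial markers (left panel) and for defining genes of gut, immune, endothelial, neural and urothelial cells (right panel). Dashed and dotted lines mark 1 and 0.1 RPKM; 19 of the 22 genes on the left reach 1 RPKM in every library, and Dclk1 is the sole gene on the right that does.

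The uroplakins split into high and very low genes. In urothelium the tetraspanins Upk1a and Upk1b pair with Upk2 and with Upk3a or Upk3b, and all are made together. Here Upk1a was at 0.363, 0.189 and 0.347 RPKM, Upk3a at 0.0204, 0.0320 and 0.0273 RPKM, or about 3 reads in all, and Upk2 at 0, 0 and 0.0346 RPKM, or about 1 read. Only Upk1b and Upk3b of the 5 genes were expressed, against 50.2% of protein-coding genes, and the lowest library of either was at 352 RPKM. Both are stated markers, named with these data in view, and 0 of the other 3 genes were expressed.

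Keratins of simple epithelia were expressed in 5 of 7 cases, Krt18 included, against 50.2% of protein-coding genes. Krt80 (3.53 ± 0.246 RPKM) completed the expressed members, while the intestinal keratin Krt20 was at 0.0234, 0 and 0.0157 RPKM. Of 11 keratins of stratified epithelia, 4 were expressed and 4 were below 0.1 RPKM, against 50.2% and 38.4% of protein-coding genes. Krt14 stood apart from that list at 43.1, 44.6 and 43.6 RPKM, whereas Krt5, its usual partner in basal cells, was at 0, 0.0323 and 0.0138 RPKM, about 3 reads. Krt15 (4.56 RPKM), Krt10 (2.69 RPKM) and Krt13 (2.66 RPKM) were lower than Krt14 by far, and Krt10 and Krt13 overlapped.

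Epithelial junction genes were mixed. Of 27 genes, 10 were expressed and 10 were below 0.1 RPKM, against 50.2% and 38.4% of protein-coding genes. The list median was 0.251 RPKM. Genes of the cytoplasmic plaque and of broadly expressed junction proteins led, with F11r, a junctional adhesion molecule, at 92.5, 92 and 92.4 RPKM, the plakoglobin gene Jup at 51.6 ± 0.758 RPKM, Tjp1 at 28.8 ± 0.885 RPKM and the tricellular junction gene Lsr at 13.6 ± 0.365 RPKM.

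Pkp2, Cgn and Dsg2 of the junction list were expressed, at 9.05, 5.80 and 5.62 RPKM. Other adhesion genes used to define an epithelium were low. Cdh1, which encodes E-cadherin, was at 0.559, 0.457 and 0.630 RPKM, about 258 reads in all, and Epcam was at 0, 0.0344 and 0.0293 RPKM. Cldn7 was listed at 0, and Cldn3 and Cldn4 had about 1 read each. The splicing factor gene Esrp1 was at 0.00195 RPKM, while its relative Esrp2 was expressed at 1.74 RPKM.

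Mesenchymal genes were expressed in 22 of 28 cases, against 50.2% of protein-coding genes. Without Vim they were expressed in 21 of 27, with a median of 6.56 RPKM against 1.16 RPKM for protein-coding genes. After Vim came the collagen-binding glycoprotein gene Sparc at 446, 448 and 449 RPKM, Col1a1 at 370, 391 and 364 RPKM and fibronectin, Fn1, at 217, 213 and 203 RPKM. The N-cadherin gene Cdh2 was at 52.0, 51.1 and 49.5 RPKM, so its lowest library lay above the highest of Cdh1. Twist1, Twist2 and Snai2, transcription factors of mesenchymal cells, were at 15.6, 16.6 and 16.2 RPKM with overlapping ranges, and Zeb1 and Zeb2 at 5.91 and 5.56 RPKM.

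The fibroblast genes at the other end of that list were Lum (0.0142 RPKM, about 3 reads) and Tcf21 (0.0237 RPKM, about 6 reads). Pdgfra, the receptor used to mark many fibroblasts, was at 2.50 RPKM and Pdgfrb at 8.06 RPKM. Among smooth muscle and contractile genes, 8 of 13, or 61.5%, were expressed, against 50.2% of protein-coding genes. Tpm1 (378, 379 and 375 RPKM), Acta2 (255, 256 and 263 RPKM) and Cnn2 (178, 180 and 181 RPKM) were high, Tagln was at 79.0 ± 1.55 RPKM, and Myh11, the myosin of mature smooth muscle, was at 0.0307, 0.0267 and 0.0319 RPKM.

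Markers of other cell types that a gut culture could hold were mostly near the floor. For comparison, 50.2% of protein-coding genes were expressed and 38.4% were below 0.1 RPKM. In RNA from bulk cells, fewer cells of a type and less RNA per cell cannot be told apart. Of 14 endothelial markers, 2 were expressed and 11 were below 0.1 RPKM: Esam, which is not restricted to endothelium, was at 20.2 RPKM and Kdr at 1.63 RPKM, against 0.0498 RPKM for Pecam1 and 0 for Cdh5, Cldn5, Emcn and Sox17. Of 18 immune markers, 2 were expressed, Cd68 at 2.62 RPKM and Cd14 at 1.76 RPKM, and 15 were below 0.1 RPKM. Ptprc, the common leukocyte antigen, was at 0.00399 RPKM in replicate 1 and at 0 in the others. Spi1, Cd3e, Cd8a and Ms4a1 were listed at 0.

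Of 12 neural and glial markers, 2 were expressed and 9 were below 0.1 RPKM, against 50.2% and 38.4% of protein-coding genes. Tubb3, a tubulin used as a neuronal marker, was nevertheless at 56.9, 55.9 and 56.3 RPKM, and the chloride channel Ano1, a marker of interstitial cells of Cajal, was at 4.27 RPKM. Kit, the other marker of those cells, was at 0.00145 RPKM, and Sox10, which marks enteric glia, was at 0.0167, 0.0130 and 0.0223 RPKM.

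**Figure D2:**
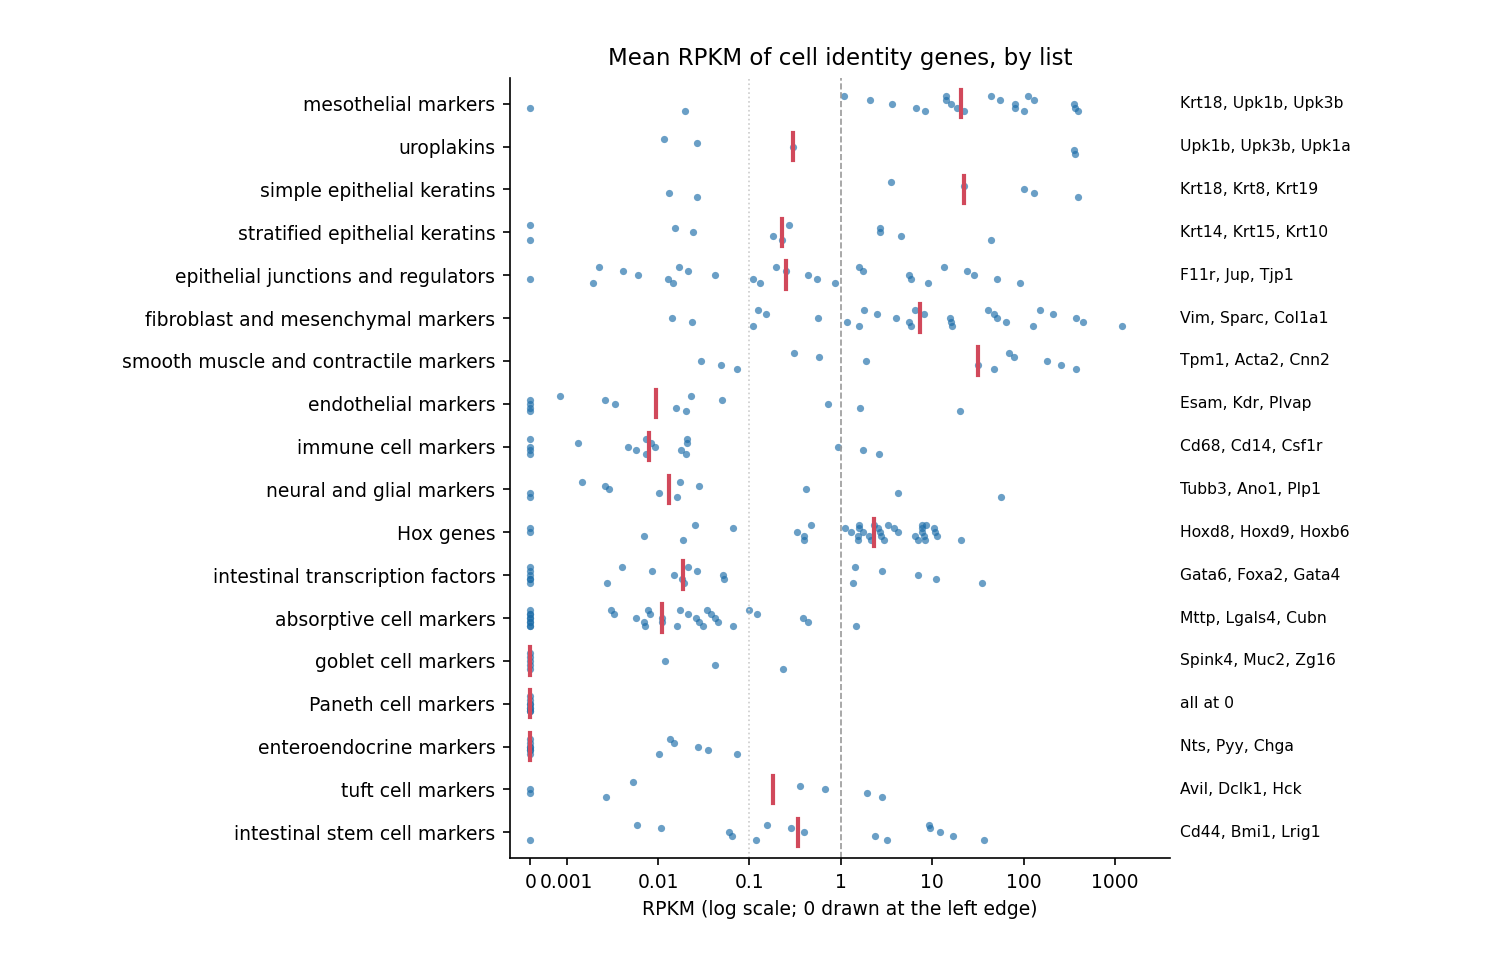
Mean RPKM over the 3 parental libraries of every gene (points) on 18 lists of cell identity and intestinal markers, on a log axis with 0 at the left edge; red bars are list medians, and the 3 highest genes are named at the right. The 8 Paneth genes all lie at 0, whereas the median of the mesothelial list is 20.4 RPKM.

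Hox genes keep a record of position along the body axis. Of 39, 28 were expressed, against 50.2% of protein-coding genes, at levels well below the structural genes. Hoxd8 was highest at 20.5, 21.3 and 20.4 RPKM, followed by Hoxd9 at 11.4 RPKM and by Hoxb6 and Hoxb7, both at 10.6 RPKM and overlapping. Hoxc9 (8.45 RPKM), Hoxb13 (8.36 RPKM), Hoxb9 (8.05 RPKM) and Hoxd11 (7.80 RPKM) came next. The range of Hoxc9 overlapped those of the other three, and Hoxd11 overlapped Hoxb13 and Hoxb9, while every library of Hoxb13 was above every library of Hoxb9. Hoxd9 and Hoxb7 also overlapped. Genes of all 4 clusters were thus expressed, and of the most posterior group Hoxb13, Hoxc13 (4.17 RPKM) and Hoxd13 (2.05 RPKM) were expressed while Hoxa13 was at 0.0662 RPKM. The anterior Hoxb1 was listed at 0, as was Hoxc11.

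Of 22 intestinal transcription factor genes, 6 were expressed and 16 were below 0.1 RPKM, against 50.2% and 38.4% of protein-coding genes. The highest was Gata6, a zinc finger factor of endoderm and mesoderm, at 35.2, 36.0 and 34.2 RPKM, followed by the forkhead factor Foxa2 at 10.7, 11.3 and 10.8 RPKM and by Gata4 at 6.48, 6.89 and 7.41 RPKM. Klf5 (2.84 RPKM) and Sox9 (1.44 RPKM) passed the threshold by less. Listed at 0 in every library were Cdx1 and Cdx2, Hnf4a and Hnf4g, the secretory lineage factor Atoh1 and the endocrine factor Neurog3.

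Genes of the absorptive cell were expressed in 1 of 34 cases, against 50.2% of protein-coding genes, and 29 of them were below 0.1 RPKM. The exception was Mttp, the microsomal transfer protein used to load lipoproteins, at 1.58, 1.55 and 1.32 RPKM. Lgals4, the endocytic receptor gene Cubn and the peptidase gene Anpep were at 0.439, 0.386 and 0.121 RPKM. Vil1, the villin of the brush border, was at 0.116, 0.0909 and 0.0873 RPKM, about 33 reads in all. Among those listed at 0 were Fabp1, Fabp2, Alpi, Sis, Apoa4, Aqp8, Guca2b and Slc10a2, which covers fatty acid binding, digestive enzymes, lipid and bile acid transport and water transport.

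The secretory lineages were as low, against 50.2% of protein-coding genes expressed. None of 8 goblet cell genes was expressed: Spink4 was at 0.233 RPKM (about 10 reads), Muc2, the main gel-forming mucin of the gut, was at 0.0619, 0.0121 and 0.0517 RPKM, and Tff3, Clca1, Fcgbp, Agr2 and Retnlb were listed at 0. All 8 Paneth cell genes were listed at 0, but the defensin genes and Lyz1 have near-identical copies among which reads may not have been assigned, so those zeros are uncertain. None of 13 enteroendocrine genes was expressed, with Nts highest at 0.0726 RPKM and Chga at 0.0481, 0.0188 and 0.0161 RPKM.

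Among 8 tuft cell genes, the actin regulator gene Avil (2.83, 2.74 and 2.95 RPKM) and Dclk1 (1.99, 1.86 and 2.01 RPKM) were expressed, while the channel gene Trpm5 was at 0.00538 RPKM and the cytokine gene Il25 was listed at 0. Of 16 genes used as markers of intestinal stem cells, 7 were expressed, a share near the 43.1% of all genes and 50.2% of protein-coding genes. These were Cd44 (36.7 ± 0.422 RPKM), Bmi1 (17.0 ± 0.513 RPKM), Lrig1 (12.2 ± 0.423 RPKM), Msi1 (9.48 ± 0.544 RPKM), Ephb3 (9.18 ± 0.424 RPKM), Axin2 (3.23 ± 0.0370 RPKM) and Znrf3 (2.38 ± 0.158 RPKM), with overlap between Msi1 and Ephb3. The genes that define the crypt base column cell were not among them. Lgr5, the R-spondin receptor of that cell, was at 0.00480, 0 and 0.0128 RPKM, and Olfm4 was listed at 0.

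The sequences before the starts of Cdx2, Vil1 and Fabp2 are shown because these genes, at or near 0, stand for the missing regulator, brush border and absorptive arms. They are given as above and lie at chr5:147307250-147307499 (-), chr1:74409134-74409383 (+) and chr3:122894822-122895071 (+), again with CpG steps in capitals.
Cdx2: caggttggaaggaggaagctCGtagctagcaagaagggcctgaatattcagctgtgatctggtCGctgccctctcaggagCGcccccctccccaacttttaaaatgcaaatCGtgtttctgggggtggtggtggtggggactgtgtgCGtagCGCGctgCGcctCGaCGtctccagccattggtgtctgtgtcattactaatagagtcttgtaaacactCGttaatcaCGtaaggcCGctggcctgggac
Vil1: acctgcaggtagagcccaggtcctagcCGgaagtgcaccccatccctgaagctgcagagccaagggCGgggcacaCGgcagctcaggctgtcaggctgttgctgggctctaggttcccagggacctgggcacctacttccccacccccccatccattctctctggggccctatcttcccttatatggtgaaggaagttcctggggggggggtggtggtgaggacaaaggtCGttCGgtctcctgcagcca
Fabp2: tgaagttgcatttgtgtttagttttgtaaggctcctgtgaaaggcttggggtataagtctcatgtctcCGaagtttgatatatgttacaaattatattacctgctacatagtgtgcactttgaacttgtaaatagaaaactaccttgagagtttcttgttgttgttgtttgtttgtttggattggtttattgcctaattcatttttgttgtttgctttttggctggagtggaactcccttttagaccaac

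Cdx2 held 13 CpG steps, more than the expressed Upk3b, Krt18 and Vim, while Vil1 held 5 and Fabp2 held 1. Among the 6 genes shown so far, Cdx2, listed at 0, held the most steps.

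Receptors were examined in 8 families. Of 252 receptor genes found, 125 were expressed and 79 were below 0.1 RPKM, against 50.2% and 38.4% of protein-coding genes, so that the share expressed was near the background. Among receptor tyrosine kinases, which bind growth factors, ephrins, collagens or Wnt proteins, 28 of 54 were expressed and the median was 1.75 RPKM. Axl, which binds the ligand Gas6, was highest at 95.4, 93.9 and 93.5 RPKM. The Wnt receptor Ryk followed at 65.8 ± 0.701 RPKM, the ephrin receptor Epha2 at 53.4 ± 0.908 RPKM and the collagen receptor Ddr1 at 49.8 ± 0.590 RPKM, with no overlap between these neighbours.

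The receptors of scatter factor and of epidermal growth factor were also expressed. Met was at 34.7, 34 and 33 RPKM and Egfr at 17.9, 17.2 and 16.9 RPKM, with Ptk7 (30.3, 29.9 and 29.9 RPKM) and the second collagen receptor Ddr2 (23.4 RPKM) between them. Within the Egfr family, Erbb2 was at 9.61 RPKM, Erbb3 straddled the threshold at 1.07, 1.03 and 0.925 RPKM, and Erbb4 was listed at 0. The neurotrophin receptor genes Ntrk2 and Ntrk3 were listed at 0 as well.

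Cytokine and TNF family receptors had the highest median of the receptor families, 6.29 RPKM. Of these 41 genes, 27 were expressed, against 50.2% of protein-coding genes. Tnfrsf12a, the receptor of the cytokine TWEAK, stood at 127, 131 and 128 RPKM, Tnfrsf1a at 71.8 ± 1.17 RPKM, Ltbr at 61.5 ± 0.509 RPKM, and Il6st, the signalling chain shared by the interleukin 6 family, at 52.6 ± 0.732 RPKM. Both chains of the interferon-gamma receptor were expressed, Ifngr2 at 26.7, 27.5 and 26.0 RPKM and Ifngr1 at 16.1, 16.5 and 16.2 RPKM, as were both chains of the type I interferon receptor, Ifnar2 at 20.3 RPKM and Ifnar1 at 15.3 RPKM. Il10ra and Csf2rb, receptor chains of blood cells, were listed at 0, while Il2rg was at 0.611 RPKM.

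TGF-beta and BMP receptors were expressed in 9 of 14 cases, against 50.2% of protein-coding genes. They were led by Bmpr1a at 40.3, 39.4 and 38.5 RPKM and Tgfbr2 at 31.3, 31.2 and 31.4 RPKM. Acvr1 (15.3 RPKM), Bmpr2 (10.9, 9.76 and 9.37 RPKM) and Tgfbr1 (9.55 RPKM) followed, the last 2 overlapping, so that type I and type II chains of both branches were present. Of 22 receptors for Wnt, Notch and Hedgehog ligands, 14 were expressed, against the same 50.2%. Smo, the Hedgehog signal transducer, was highest at 27.9 ± 0.683 RPKM, followed by Fzd7 (17.3 RPKM), Fzd6 (16.1 RPKM), the R-spondin receptor Lgr4 (14.9 RPKM) and Fzd2 (14.4 RPKM), with overlap between Lgr4 and Fzd2. Lgr4 was the sole expressed member of the Lgr4, Lgr5 and Lgr6 group.

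Toll-like receptors were expressed in 4 of 12 cases, against 50.2% of protein-coding genes. These were Tlr3 at 7.37, 7.59 and 6.98 RPKM, Tlr2 at 6.81, 6.67 and 6.74 RPKM, Tlr4 at 3.04 RPKM and the flagellin receptor Tlr5 at 1.45 RPKM. Of 48 G protein-coupled receptors, 11 were expressed, and the median was 0.0893 RPKM against 1.16 RPKM for protein-coding genes. The thrombin receptor F2r was far above the others at 70.8, 70.3 and 70.1 RPKM, followed by the orphan receptor Gprc5a at 25.2 RPKM, S1pr2 at 13.0 RPKM and Ptger1 at 10.1 RPKM. The last of these overlapped with the lysophosphatidic acid receptor Lpar2 at 9.72 RPKM.

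Nuclear receptors were expressed in 19 of 35 cases, or 54.3%, near the 50.2% of protein-coding genes. The retinoic acid receptor Rarg was highest at 31.1, 31.9 and 32.4 RPKM, then Nr2f6 (26.2 RPKM), Nr1h2 (19.4 RPKM), Thra (17.7 RPKM) and Rxrb (13.9 RPKM), and the glucocorticoid receptor Nr3c1 was at 12.6 RPKM. Nr5a2 and the xenobiotic receptor Nr1i2, which are known in intestine and liver, were listed at 0. Of 26 integrin genes, 13 were expressed, also near the 50.2% of protein-coding genes. Itgb1, the common beta chain, stood at 248, 244 and 244 RPKM, and its partners Itga3 (87.5 ± 0.115 RPKM), Itga5 (56.0 ± 1.25 RPKM), Itgav (45.7 ± 1.90 RPKM) and Itga7 (43.9 ± 0.658 RPKM) followed; Itgav and Itga7 overlapped. The beta chain of epithelial hemidesmosomes, Itgb4, was at 1.58 RPKM.

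**Figure D3:**
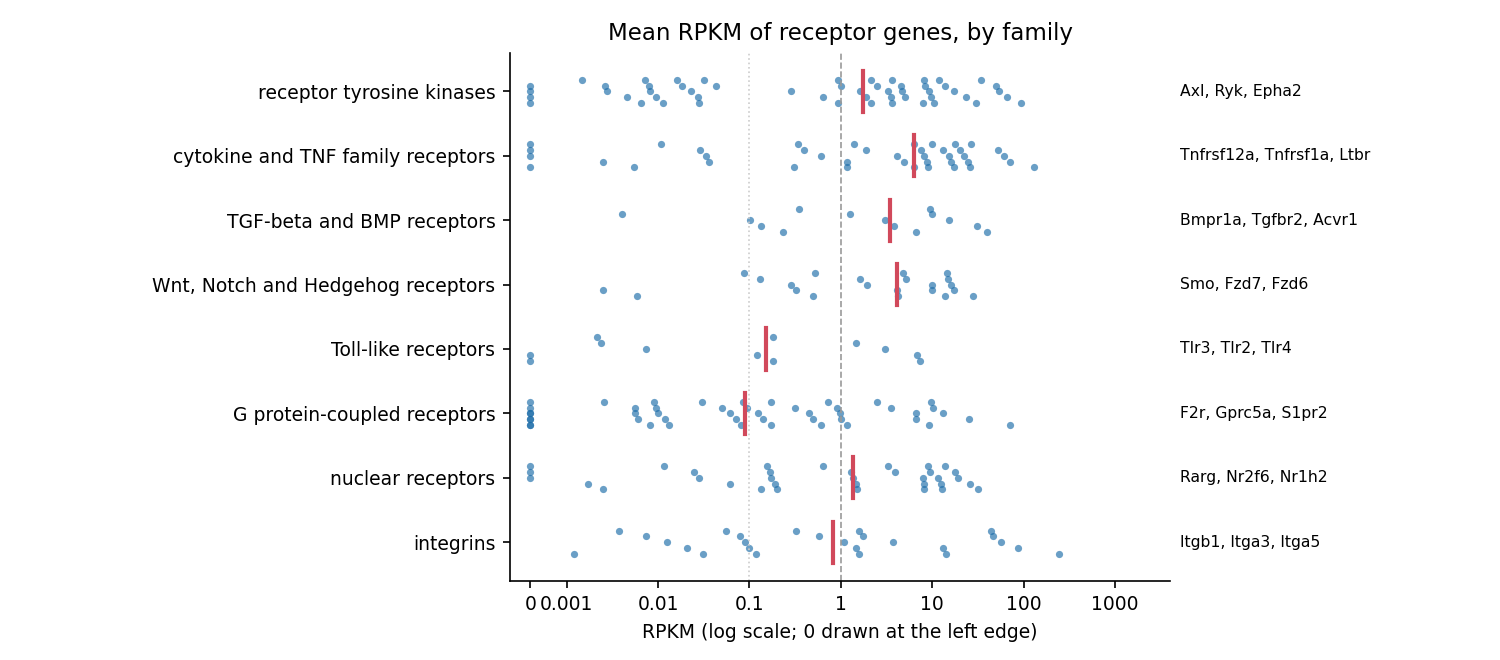
Mean RPKM over the 3 parental libraries of every receptor gene (points) in 8 families, on a log axis with 0 at the left edge; red bars are family medians, and the 3 highest genes are named at the right. Medians run from 0.0893 RPKM for G protein-coupled receptors to 6.29 RPKM for cytokine and TNF family receptors, and Itgb1 is the highest receptor gene at 245 RPKM.

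Genes for secreted proteins were expressed in 152 of 271 cases, with 61 below 0.1 RPKM, against 50.2% and 38.4% of protein-coding genes. Of 39 collagen chains, 17 were expressed and 15 were below 0.1 RPKM, shares near the 43.1% and 43.6% of all genes. The fibril chains Col1a1, Col3a1 (152 ± 3.03 RPKM) and Col5a2 (127 ± 1.64 RPKM) and the basement membrane and microfibril chains Col4a1 (154 ± 2.67 RPKM) and Col6a1 (155 ± 2.66 RPKM) exceeded 100 RPKM. Col6a1, Col4a1 and Col3a1 had overlapping ranges and were not ordered. The alpha 2 chain of collagen I, Col1a2, was at 64.1, 65.1 and 61.9 RPKM, below the 370, 391 and 364 RPKM of Col1a1, with which it forms a trimer.

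Matrix glycoproteins and proteoglycans were expressed in 33 of 46 cases, with a median of 16.9 RPKM, against 50.2% and 1.16 RPKM for protein-coding genes. Lgals1 and Sparc led, and Fbln2 (240 ± 3.21 RPKM), the proteoglycan biglycan, Bgn (222 ± 3.93 RPKM), Fn1, the collagen cross-linking enzyme Lox (188, 177 and 179 RPKM) and Thbs1 (151, 146 and 139 RPKM) all exceeded 100 RPKM. Laminin chains were led by Lamc1 at 47.6 RPKM and Lamb1 at 29.1 RPKM, with Lama5 at 21.0 RPKM as the highest alpha chain. Lama1 was at 0.0217 RPKM and the elastin gene Eln at 0.0142 RPKM.

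The leading inhibitors of matrix metalloproteinases stood above the leading metalloproteinase. Timp3, a matrix-bound inhibitor of metalloproteinases, was at 591, 572 and 574 RPKM, and Timp2 was at 189, 188 and 188 RPKM, whereas the highest metalloproteinase, the membrane-bound Mmp14, was at 109, 110 and 109 RPKM and Mmp2 at 1.20 RPKM. Serpinh1, the collagen chaperone of the endoplasmic reticulum, reached 268 ± 3.43 RPKM, and the cysteine protease inhibitor Cst3 reached 136 ± 1.58 RPKM. Lysosomal Ctsd and Ctsl were at 120 and 108 RPKM. In all, 24 of these 32 genes were expressed, against 50.2% of protein-coding genes.

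Growth factors were expressed in 23 of 40 cases, or 57.5%, near the 50.2% of protein-coding genes. Csf1, the macrophage growth factor, was highest at 110, 108 and 108 RPKM, while its receptor Csf1r was at 0.840, 0.959 and 0.999 RPKM. Grn was at 84.6 ± 0.496 RPKM, and Mdk (27.1 RPKM) and Vegfa (26.4 RPKM) overlapped. Gas6, the ligand of Axl, was at 17.4 RPKM; Hgf, the ligand of Met, was at 0.00913 RPKM and is named here after its value was seen.

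Of 22 TGF-beta and BMP ligands and antagonists, 16 were expressed, against 50.2% of protein-coding genes. Fstl1, a secreted follistatin-like glycoprotein, was at 268, 267 and 269 RPKM, the latency proteins Ltbp3 and Ltbp1 were at 28.6 and 23.3 RPKM, and Bmp4 was at 23.4, 23.9 and 23.3 RPKM, overlapping with Ltbp1. Tgfb3 (14.5 RPKM), Tgfb2 (9.57 RPKM) and Tgfb1 (7.88 RPKM) were all expressed.

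Chemokines were the leading cytokines, and 17 of 34 genes of the list were expressed, near the 50.2% of protein-coding genes. Cxcl10, an interferon-induced chemokine, was highest at 178, 177 and 176 RPKM, followed by the monocyte attractants Ccl2 at 106, 106 and 105 RPKM and Ccl7 at 46.8, 51.0 and 47.9 RPKM and by the neutrophil attractant Cxcl1 at 37.7 ± 1.37 RPKM. Mif was at 25.5, 31.1 and 28.8 RPKM, and Cxcl12 at 23.8 RPKM. Il1b, Il10 and Il12a were listed at 0, and Tnf was at 0.0182 RPKM.

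Of 7 insulin-like growth factor binding proteins, 5 were expressed, against 50.2% of protein-coding genes. Igfbp3 was at 65.2, 66.9 and 63.8 RPKM, Igfbp6 at 26.2 RPKM and Igfbp7 at 13.6 RPKM. Wnt ligands were expressed in 4 of 19 cases: Wnt5a at 15.4, 15.4 and 14.6 RPKM, Wnt4 at 6.13 RPKM, Wnt9a at 4.87 RPKM and Wnt11 at 1.80 RPKM. Of 14 Wnt antagonists and R-spondins, 3 were expressed, the antagonist Sfrp1 at 20.5 ± 0.207 RPKM, Rspo1 at 6.59 RPKM and Sfrp4 at 3.18 RPKM, while Dkk1, Dkk2, Sfrp5 and Wif1 were listed at 0. Complement and acute-phase genes were expressed in 10 of 18 cases, or 55.6%, near the 50.2% of protein-coding genes. They were led by C1s1 (62.7 ± 1.67 RPKM), the inhibitor Serping1 (54.8 ± 0.508 RPKM) and serum amyloid Saa3 (47.5, 51.6 and 49.8 RPKM), with C3 at 6.03, 5.98 and 6.0 RPKM.

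**Figure D4:**
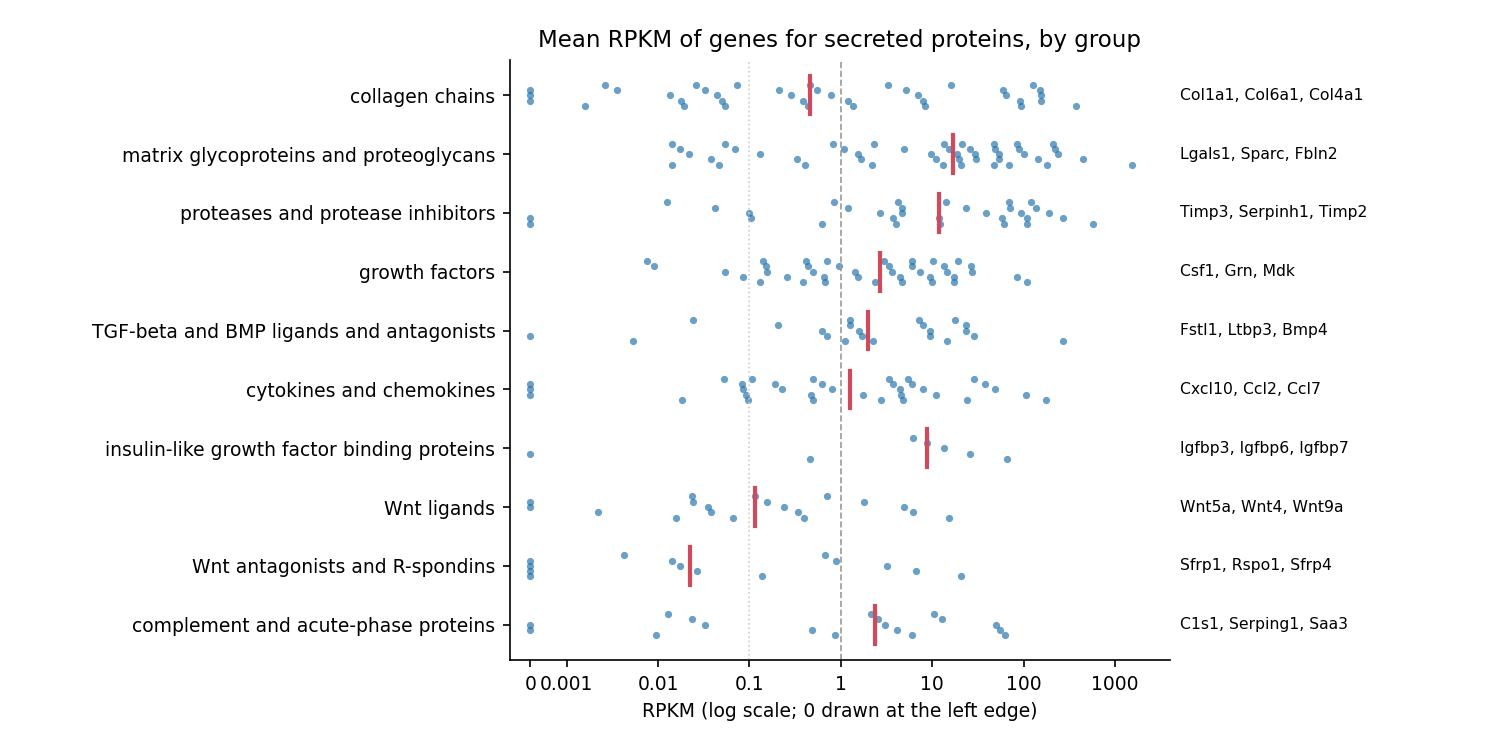
Mean RPKM over the 3 parental libraries of every gene for a secreted protein (points) in 10 groups, on a log axis with 0 at the left edge; red bars are group medians, and the 3 highest genes are named at the right. The median of the matrix glycoproteins and proteoglycans, 16.9 RPKM, is the highest of the 10, and the Wnt antagonists and R-spondins are lowest at 0.0221 RPKM.

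Antigen presentation was expressed at high levels on both arms. All 14 genes of the class I and interferon-gamma response list were expressed, against 50.2% of protein-coding genes. Their median was 158 RPKM, and 11 genes were at 100 RPKM or more. After B2m these were the class I heavy chains H2-K1 (771, 795 and 774 RPKM) and H2-D1 (591, 597 and 588 RPKM), the guanylate-binding Gbp2 (492, 499 and 486 RPKM), the loading factor Tapbp (255 ± 2.80 RPKM) and the immunoproteasome subunit Psmb8 (234 ± 1.76 RPKM). Irf1 was at 107 RPKM and the class I activator Nlrc5 at 22.4 RPKM. The interferon-inducible GTPase Iigp1, from outside the list, ranked 29 at 628 RPKM. H2-K1 and H2-D1 belong to a family of similar genes, so reads may be shared between them.

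Class II genes are normally made by professional antigen-presenting cells and induced elsewhere by interferon-gamma through Ciita. Here 7 of 10 were expressed, against 50.2% of protein-coding genes. Cd74, the invariant chain, was at 408, 405 and 411 RPKM, H2-Aa at 102, 102 and 102 RPKM, H2-Ab1 at 71.2, 74.1 and 70.5 RPKM and H2-Eb1 at 51.6, 53.4 and 52.7 RPKM. Ciita was at 10.3, 10.1 and 9.45 RPKM. The defining leukocyte genes Ptprc and Spi1 were at 0.00133 RPKM and 0 in the same libraries. Whether interferon-gamma was in the medium is not given in the sources used here.

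The sequences before the starts of B2m and Gbp2 are shown because each holds GAAANNGAAA, the core of the element bound by interferon-regulated factors, which was searched on both strands. Of the 14 genes of the class I list, 11 had a promoter in the table and 2 held the letters, against 3.04% of all 27025 promoters. Of the 10 class II genes, 7 had a promoter and 0 held the letters. With fewer than 80% of either list covered, no statement on either list is drawn. The sequences of B2m and Gbp2 lie at chr2:122147437-122147686 (+) and chr3:142620413-142620662 (+), with the matching letters in capitals. The match starts 139 bases before the start in B2m and 59 bases before it in Gbp2.
B2m: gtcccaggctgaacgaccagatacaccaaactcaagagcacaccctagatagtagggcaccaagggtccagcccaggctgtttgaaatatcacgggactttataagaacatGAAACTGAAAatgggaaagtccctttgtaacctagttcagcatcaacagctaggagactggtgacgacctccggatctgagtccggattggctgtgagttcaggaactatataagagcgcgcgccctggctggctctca
Gbp2: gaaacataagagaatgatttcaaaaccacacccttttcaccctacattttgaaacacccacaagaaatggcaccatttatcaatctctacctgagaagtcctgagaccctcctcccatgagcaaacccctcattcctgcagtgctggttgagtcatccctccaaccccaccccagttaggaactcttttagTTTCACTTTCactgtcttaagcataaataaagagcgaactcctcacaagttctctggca

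In Gbp2 the match is on the opposite strand, and so reads TTTCACTTTC. A match is a description of letters and was not tied to binding of any factor here.

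All 24 proliferation genes were expressed, from 14.3 RPKM for Tyms to 171 RPKM for the topoisomerase gene Top2a, with a median of 79.5 RPKM. Top2a was at 170, 172 and 170 RPKM, Ccnd1 at 130, 132 and 129 RPKM, Rrm1 at 129, 129 and 126 RPKM, Rrm2 at 117, 120 and 119 RPKM and Mki67 at 34.8, 33.6 and 32.8 RPKM. Cell cycle inhibitors were expressed in 8 of 10 cases at the same time, against 50.2% of protein-coding genes. Cdkn2a, which encodes the Ink4a and Arf proteins, was highest at 181, 190 and 191 RPKM, followed by Trp53 at 70.4 ± 1.75 RPKM. The p53 target Cdkn1a was at 5.07, 5.21 and 5.57 RPKM. All these levels are sums over transcripts of a gene, so the 2 products of Cdkn2a were not separated.

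The promoters of expressed protein-coding genes held more CpG steps than those of silent genes. In the 250 bases before the start, the median number of steps was 17 (quartiles 11 and 23) over 8479 expressed genes, 3 (quartiles 1 and 6.25) over 6424 genes below 0.1 RPKM and 2 over 3953 genes at 0, against 10 over all 16733 with a promoter. At least 10 steps were found in 79.1% of the expressed genes and in 17.8% of those below 0.1 RPKM. The median differed little with level among expressed genes, at 16 from 1 to 10 RPKM and 18 from 10 to 100 RPKM. The absorptive cell list had a median of 3 over 30 genes, the enteroendocrine list, also silent, 8 over 13 genes, and the proliferation list 18.5 over 20 genes. Upk3b, with 2 steps, and Gbp2, with 1, were expressed at 355 and 492 RPKM with fewer steps than the lower quartile of expressed genes, and Cdx2, with 13, was at 0 with more than the upper quartile of silent genes.

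**Figure D5:**
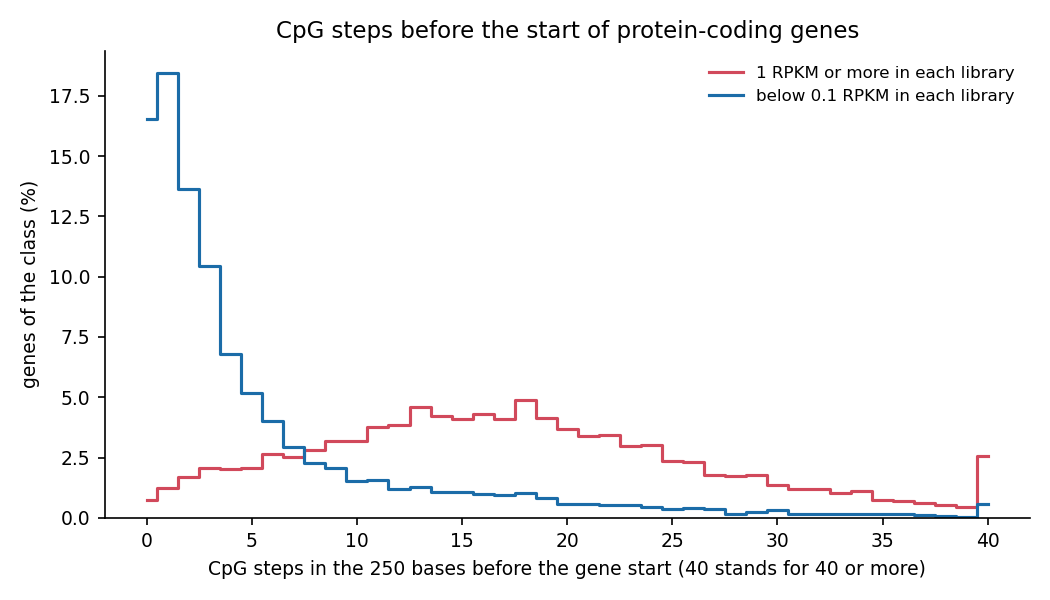
Share of protein-coding genes (vertical axis, % of each class) by the number of CpG steps in the 250 bases before the annotated start (horizontal axis, 40 standing for 40 or more), for genes at 1 RPKM or more in each parental library (red) and below 0.1 RPKM in each (blue). The medians are 17 and 3 steps, and the classes overlap.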

How the data were processed

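The 3 parental libraries were made, per the labels, from total RNA with a TruSeq kit. The authors deposited RPKM values for 28059 Entrez identifiers. Per the submitters' processing notes, GSNAP, DESeq and the build NCBIM37 were used, with no versions or roles; neither the annotation nor how reads were counted is stated there. Columns were matched to samples by the identifiers in the labels, and no column was left without a sample. Symbols (24998 identifiers matched), exon lengths and pseudogene names came from RefSeq and GENCODE M21 tables of GRCm38, without their coordinates; promoters are RefSeq's for GRCm38.p6.

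From the RPKM values, means, SDs, ranks over all identifiers and threshold counts were computed with Python 3.11.15, pandas 2.3.3 and numpy 2.4.6, and plots were drawn with matplotlib 3.10.9. There is 1 group, so no test was made. Library totals are those that turn the RPKM of small RNA genes under 400 bases into whole reads (within 0.01 for 98.0%, 98.4% and 97.9% of 255, 244 and 238 values), and reads behind other low genes were inferred from them for 418 of 420 list genes under 1 RPKM. The recovery of library totals was checked on simulated data, and the reads inferred for single genes were not. Those reads rest on a gene-model length chosen near the GENCODE exon length, so another whole number can fit as well.

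The 42 lists (919 entries, 882 genes, 2 not found: Mertk and Ccl28), the stated markers and the members were chosen with earlier results of these data known. The genes named were the 20 highest, the stated markers, the 5 highest of each list (8 for lists over 30 genes), intestinal genes with a mean of at least 0.5 RPKM, a set of defining genes and the 10 most variable genes; any other gene named was chosen after its values were seen. The values of some list members are not reported here, but they are part of the counts. Alternatives were thresholds of 0.5 and 3 RPKM, the mean in place of every library, median-ratio scaling, geometric means with pseudocounts of 0.5 and 0.1, ranks over other sets of identifiers, other cuts on the mean for the spread and each library left out. Added after seeing the data were leaving out genes with a named pseudogene, leaving out the stated markers, protein-coding genes only for the spread, and the promoter of most CpG steps per gene. Counts of CpG steps over a set are given only where at least 80% of its genes had a promoter. By that rule 12 lists passed. For the other 30, for genes between the thresholds and for those of 100 RPKM or more, the check is void.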

Additional observations from a re-analysis of the deposited data

How the results depend on the processing

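No paired analysis was possible because there is 1 group and no comparison. Among values recomputed for counts, shares, spread, promoters and the median marker rank, 362 stayed close to the value reported and 22 moved. For the level and rank of each stated marker, 70 stayed close and 14 moved. Close meant within a fixed fold change for counts and within the SD over libraries for other values. The median-ratio factors ran from 0.997 to 1.004 and the libraries were nearly alike. Rescaling or leaving a library out could therefore hardly move most counts, and these tallies are no measure of robustness. The number of expressed genes ran from 10235 at 3 RPKM to 13007 at 0.5 RPKM. Both were taken as close to 12089. With a threshold of 3 RPKM, the expressed members numbered 2 for stratified keratins, 1 for endothelial, 0 for immune, 15 for Hox, 3 for intestinal factors, 0 for absorptive, 0 for tuft, 2 for Toll-like receptors, 8 for integrins and 10 for TGF-beta and BMP ligands. Without genes that have a named pseudogene, an alternative added after seeing the data, 1 neural marker and 16 genes that every cell uses were expressed. Without the stated markers, also added after seeing the data, 0 of 3 uroplakins were expressed. These follow from the alternative's own construction. The median rank of the stated markers, 66.5, was 44.5 over identifiers with a symbol and 39.5 over those with at least 500 exon bases, since fewer genes were ranked. Over identifiers with a symbol, the 10, 100 and 1000 highest genes held 4.44%, 15.9% and 48.2%. Genes with a coefficient of variation over 10% numbered 169 at a mean of at least 5 RPKM, 880 at 1 RPKM, 12 at 20 RPKM and 48 among protein-coding genes. The difference in median CpG steps, 14, was 15 with the promoter of most steps per gene. Levels under about 0.02 RPKM rest on a few reads each, and neither their order nor their spread was read.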

Other observations

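Of 77 ribosomal protein genes, which cells make in near-equal amounts of protein, all were listed between 2.35 RPKM for Rpl21 and 1314 RPKM for Rpl8. The 62 with at least 1 named pseudogene had a median of 16.7 RPKM and the 15 with none a median of 152 RPKM. Rpl21, with 15 named pseudogenes, was at 2.29, 2.50 and 2.26 RPKM, and Rpl8, with none, was at 1289, 1322 and 1331 RPKM. The part of read assignment in this difference was not tested.

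The 10 genes with the highest coefficient of variation among those of at least 5 RPKM were all small RNA genes, with Snord68 (6.12, 0.737 and 9.45 RPKM) highest at 80.9%, followed by Snord2 at 46.0% and Snord43 at 44.5%. Their gene models are short and few reads lie behind each value. Among 8030 protein-coding genes of that level, 48 exceeded 10%, led by Smim27 (7.99, 6.68 and 5.16 RPKM) at 21.4%, Dnajc15 at 19.3% and BC048507 at 17.1%.

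Among identifiers that matched no symbol, 924 of 3061 were expressed and 106 were at 100 RPKM or more in each library. What they are was not resolved here.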
